A study of Mus musculus with 4 samples.

Results

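The clotting factors, their inhibitors and the complement proteins of blood plasma are made largely in the liver, and 35 of their genes are described here in livers of mice infused through the cecum with a short-chain fatty acid. A gene was taken by its symbol, from probe sets that the platform annotation gives to that symbol alone. That rule measured 33 of the 35 listed genes, among 18820 genes in all: 17 of 17 coagulation genes and 16 of 18 complement genes, each by 1 probe set. C3 and Masp2 were not analysed here. The mice were male C57Bl/6J of 16 to 17 weeks, fed a semi-synthetic diet with palm oil for 6 weeks and fitted with a permanent cecal catheter, and they were awake during an infusion of 6 h. The 4 groups received sodium acetate, sodium propionate, sodium butyrate or phosphate-buffered saline as the control. Each acid carried a carbon-13 label and was given at 0.3 M and 0.2 ml/h, which the submitters give as 2.4 mmol/h/kg, so that the acids can be compared at a matched dose and time. RNA was pooled within each group before measurement, from 6 acetate, 6 propionate, 4 butyrate and 6 control mice, and each pool was hybridised to 1 array. No group has a replicate, so no value below has an error, no difference could be tested, and each ratio compares 2 pools.

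Coagulation is a cascade of proteases that ends in thrombin, which turns soluble fibrinogen into a fibrin mesh. Factor XII and kininogen start it on charged surfaces, tissue factor with factor VII starts it at wounds, antithrombin and protein C hold it back, and plasmin dissolves the clot. Complement marks microbes and debris for removal: C1q binds antibody complexes, mannose-binding lectins bind microbial sugars, convertases built from C2 or factor B cut C3, and C5 to C9 form a pore in the target membrane. Hepatocytes secrete most of these proteins, whereas C1q is made chiefly by macrophages, which in liver are the Kupffer cells.

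The 3 C1q genes had the widest spread of all members over the pools, and the other 30 members lay within 1.2-fold of control with every acid. With butyrate, C1qa, C1qb and C1qc were 1.29-fold, 1.35-fold and 1.45-fold above control. With propionate they were 1.14-fold, 1.196-fold and 1.22-fold above it, and with acetate 1.06-fold, 1.03-fold and 1.05-fold. No member reached 1.5-fold with any acid. Genes were counted as called at a ratio of at least 1.2-fold, which is 0.26 on the log2 scale. The background was counted over the 9410 genes whose mean level reached the median of all genes' means, a floor of 5.55 on the log2 scale, and all 33 members lay above that floor.

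At 1.2-fold or more above control, 0 of 33 members were called with acetate, 1 with propionate and 3 with butyrate. Over all genes above the floor the shares were 4.65% with acetate, 4.55% with propionate and 4.87% with butyrate, so the propionate count was near the background. Below control by that amount lay 0 of 33 members with each acid, beside 5.26%, 5.64% and 3.73% of all genes. At 1.5-fold in either direction, where no member was called, the background shares were 1.14%, 1.11% and 1.12%. The 3 ratios to control share the same control array, so any deviation of that array enters all of them. In whole tissue, a change in the number of cells of a type and a change in RNA per cell cannot be told apart.

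**Figure D1:**
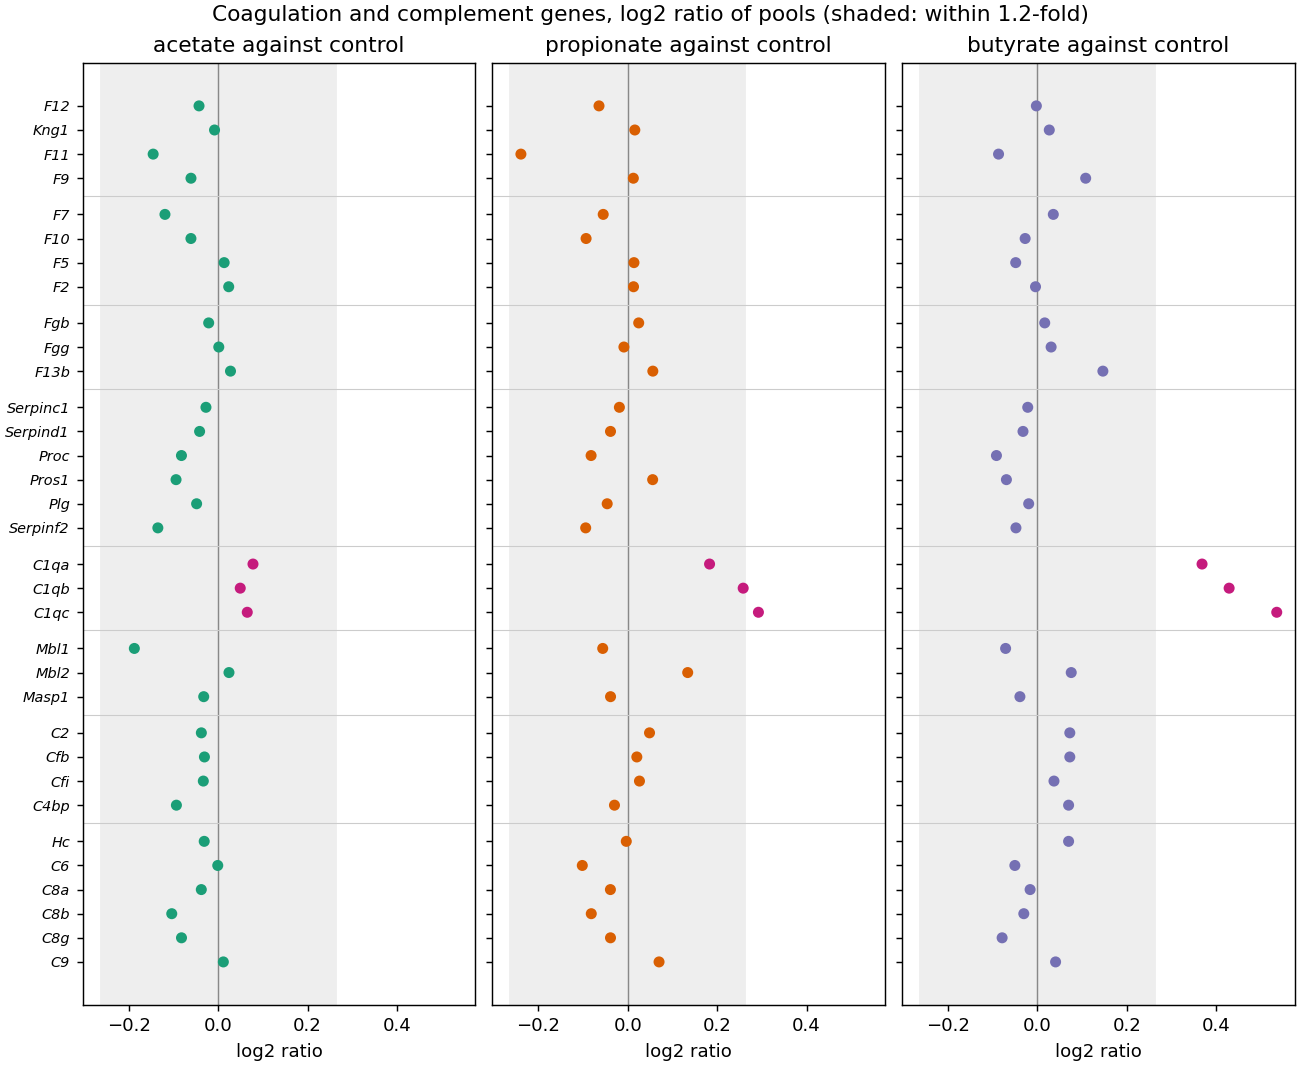
Log2 ratio of each acid pool to the control pool (x axis) for the 33 measured members, grouped by role from contact factors at the top to terminal complement components at the bottom; the shaded band marks ratios within 1.2-fold, and C1q genes are drawn in pink. The C1q genes leave the band with butyrate, at 0.37, 0.43 and 0.54, and C1qc also with propionate, at 0.29, while the other 30 members stay between -0.24 and 0.15 in all panels.

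C1q is the recognition unit of the classical complement pathway, and each molecule combines the A, B and C chains encoded by C1qa, C1qb and C1qc. On the log2 scale, C1qa stood at 8.73 in the acetate pool, 8.84 in the propionate pool and 9.02 in the butyrate pool, against 8.65 in the control pool. C1qb stood at 10.27, 10.48 and 10.65 in the acetate, propionate and butyrate pools, against 10.22 in the control pool. C1qc stood at 8.78 with acetate, 9.01 with propionate and 9.25 with butyrate, against 8.72 in the control pool. All 3 genes had the same order of pools, with butyrate highest, then propionate, then acetate, and control lowest. Their log2 ratios to control were 0.37, 0.43 and 0.54 with butyrate, 0.18, 0.26 and 0.29 with propionate, and 0.08, 0.05 and 0.07 with acetate. With propionate C1qc passed 1.2-fold and C1qb, at 0.258 on the log2 scale, lay just under it. With cyclic loess in place of the deposited scaling, 2 of the 3 genes passed with propionate. Against the mean of the other 3 pools in place of control, 0 of 3 did, and the C1q median with acetate turned to -0.18.

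**Figure D2:**
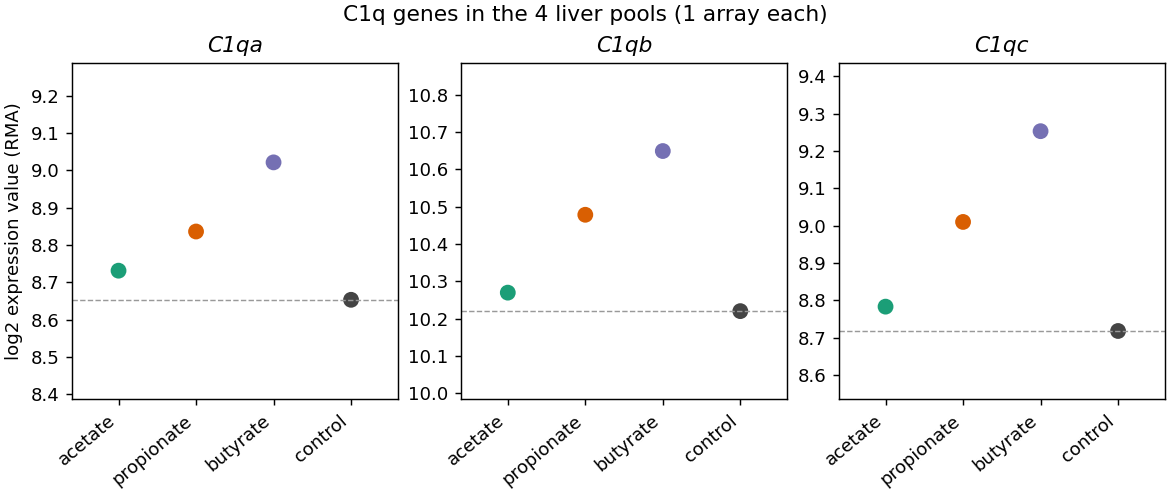
Log2 expression values of C1qa, C1qb and C1qc (y axis, with its own range in each panel and the same span of 0.9) in the acetate, propionate, butyrate and control pools, 1 point per array; the dashed line marks the control pool. In each panel the butyrate pool is highest, at 9.02, 10.65 and 9.25, and the control pool lowest, at 8.65, 10.22 and 8.72.

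Set against one another at the matched dose, butyrate and acetate gave the widest contrast. The log2 ratio of butyrate to acetate was 0.29 for C1qa, 0.38 for C1qb and 0.47 for C1qc, and all 3 passed 1.2-fold, beside a background of 7.28% of genes higher and 6.25% lower. Propionate lay above acetate by 0.10, 0.21 and 0.23, with 0 of 3 past 1.2-fold and a background of 3.24% higher and 3.67% lower. Butyrate lay above propionate by 0.19, 0.17 and 0.24, again with 0 of 3 past 1.2-fold, beside 6.59% higher and 4.10% lower. These acids differ in the length of their carbon chain, with butyrate the longest and acetate the shortest. The butyrate pool also held fewer mice, 4 against 6, and whether chain length bears on these ratios was not tested. None of the 3 contrasts could be tested, and the size of error of these differences is unknown.

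C1qb, C1qc and C1qa follow one another on mouse chromosome 4 with no protein-coding gene between them in the RefSeq annotation (assembly GRCm38.p6, used for order only). To show what lies at the start of the genes that differed, the promoters of C1qc, the member past 1.2-fold with both propionate and butyrate, and of its neighbour C1qb are printed, with that of the fibrinogen gene Fgb, a member that stayed level, for contrast. C1qb and Fgb were picked after their values were seen. Each runs 5′ to 3′ from 250 bases before the gene start to 50 after it, from RefSeq (GRCm38.p6). The intervals are chr4:136892865-136893164 for C1qc, chr4:136886151-136886450 for C1qb and chr3:83049814-83050113 for Fgb, all on the minus strand. Capitals mark matches on either strand to GAGGAA, the core bound by the macrophage factor PU.1, to TTCNNNGAA, the form of a STAT site, and to GTTAAT, part of the site of the hepatocyte factor HNF1.
C1qc: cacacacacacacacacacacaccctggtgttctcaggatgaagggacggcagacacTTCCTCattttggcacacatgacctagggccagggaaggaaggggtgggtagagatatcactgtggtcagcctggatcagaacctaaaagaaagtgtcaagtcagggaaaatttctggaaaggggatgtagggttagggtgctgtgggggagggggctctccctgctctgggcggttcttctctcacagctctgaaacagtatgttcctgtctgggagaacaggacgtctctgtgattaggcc
C1qb: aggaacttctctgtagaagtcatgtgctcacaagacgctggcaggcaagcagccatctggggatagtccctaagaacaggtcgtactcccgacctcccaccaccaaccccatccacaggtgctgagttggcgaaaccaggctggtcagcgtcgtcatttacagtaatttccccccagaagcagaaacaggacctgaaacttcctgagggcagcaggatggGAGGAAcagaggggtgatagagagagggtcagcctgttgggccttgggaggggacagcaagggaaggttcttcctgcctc
Fgb: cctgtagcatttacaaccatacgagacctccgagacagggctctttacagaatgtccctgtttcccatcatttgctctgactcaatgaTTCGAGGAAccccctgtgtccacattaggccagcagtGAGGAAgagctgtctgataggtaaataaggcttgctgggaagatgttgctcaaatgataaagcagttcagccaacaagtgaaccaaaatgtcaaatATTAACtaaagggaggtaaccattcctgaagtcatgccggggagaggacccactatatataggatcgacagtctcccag

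The C1qc promoter held the PU.1 core at bases 58 to 63, on the opposite strand, and the C1qb promoter at bases 221 to 226. Fgb held it at bases 92 to 97, inside its STAT-like match at bases 89 to 97, and again at bases 126 to 131, and had the HNF1 motif at bases 222 to 227. Promoters were found for 25 of the 33 measured members, and C1qa was not among them. The PU.1 core was found in both C1q promoters and in 2 of the 23 others (F7 and Fgb), beside 28.3% of the 32851 promoters in the table. The STAT-like motif was found in 4 of those 23 (C8a, F9, Fgb and Pros1), beside 8.30% of all promoters. The HNF1 motif was in 7 of the 23 (C4bp, C8a, C8b, F13b, F2, Fgb and Hc), beside 7.10% of all promoters. A match of letters is a description of the sequence and shows no binding.

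Markers of Kupffer cells and macrophages lay mostly above control with propionate and butyrate, as the C1q genes did, and mostly below it with acetate, where the C1q genes lay above. All 14 markers of that list lay above the floor in every pool. Their summed linear level was 7176 in the acetate pool, 8885 in the propionate pool and 10142 in the butyrate pool, against 7330 in the control pool. The same sum for the C1q genes was 2100 with acetate, 2399 with propionate and 2735 with butyrate, against 2016 in the control pool. With butyrate 14 of 14 markers lay above control, with a median log2 ratio of 0.53, and the C1q ratios were 0.17 and 0.11 below that median for C1qa and C1qb and at it for C1qc. With propionate 12 of 14 lay above control, with a median of 0.24, and each C1q gene had 7 markers above it and 7 below. With acetate 9 of 14 markers lay below control, with a median of -0.16, while the C1q genes lay above control by 0.05 to 0.08 and 11 of the 14 markers were lower than each of them. Between the acids, butyrate lay above acetate for 14 of 14 markers, beside 52.4% of all genes. The median log2 ratio of the markers there was 0.495, higher than the ratio of each C1q gene. The contrast of butyrate with acetate was thus not particular to C1q.

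Among those markers, the scavenger receptor gene Marco stood at 6.20, 7.42 and 7.85 in the acetate, propionate and butyrate pools, against 6.45 in the control pool. Adgre1, a surface receptor gene of mouse macrophages, stood at 7.92, 8.82 and 8.86, against 8.10 in control. The Kupffer cell lectin Clec4f, by contrast, stood at 9.36, 9.51 and 9.71, against 9.61 in control. Marco, Adgre1 and Clec4f all lay below control with acetate. The only markers of the list past 1.2-fold with acetate lay above control, namely Lyz2 (0.43) and Cd68 (0.27). The markers thus spread widely around the C1q genes, from 0.09 for Clec4f to 1.40 for Marco with butyrate. Other cell lists also differed in the butyrate pool, 2 of them most. The summed level of 7 neutrophil and monocyte markers was 685 there, against 227 in the control pool, and that of 6 skeletal muscle markers 225 against 1356. Without Ngp, the marker that differed most, the first of these sums was 313 against 171.5, a setting added after the values were seen. Of the 7, 3 in the butyrate pool and 5 in the control pool lay below the floor, and of the 6, 5 in the butyrate pool and 0 in the control pool. Smaller differences lay in the platelet, sinusoidal endothelium and stellate cell lists. Their sums were 366, 3283 and 4609 in the butyrate pool, against 286, 2960 and 4242 in the control pool. Most platelet markers lay below the floor. The part of these cell types in the C1q values was not tested.

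**Figure D3:**
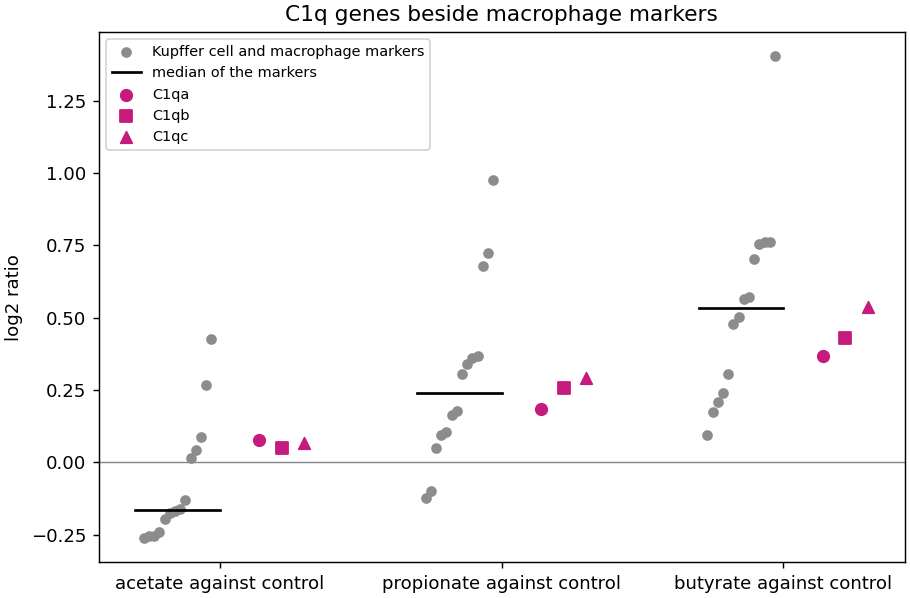
Log2 ratio to the control pool (y axis) of 14 Kupffer cell and macrophage markers (grey points, bar at their median) and of the 3 C1q genes (pink) for each acid. The C1q genes lie above most markers with acetate, where the marker median is -0.16, and within their range with propionate (median 0.24) and butyrate (median 0.53).

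The 30 members outside C1q were nearly level across the pools. Their highest value over the 4 pools exceeded their lowest by 0.03 to 0.24 on the log2 scale, with a median of 0.09, and 0 of 30 spanned 1.2-fold. Over all genes above the floor the median span was 0.18 and 27.4% spanned 1.2-fold. Over the 4705 genes above a higher floor of 7.63, which all 33 members also passed, the median span was 0.15 and 16.6% spanned 1.2-fold. The 3 C1q genes spanned 0.37 to 0.54, and all 3 spanned 1.2-fold. They were the only members that did, so setting them apart fixed the count of 0 for the other 30. That count is a description and no test of these genes. The values of these 30 members ran from 8.70 to 13.3, where 13.7 was the highest value of any probe set on the arrays, and whether bright probes near the top of the scale compressed their ratios was not tested. Their median in the control pool was 11.73, and neither background is matched to them on level. With acetate, propionate and butyrate, 9 hepatocyte markers had median absolute log2 ratios to control of 0.02, 0.02 and 0.03. Those of the 30 members were 0.04, 0.04 and 0.04.

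Counting ratios of at least 1.1-fold in either direction gave 2 of the 30 with acetate (Mbl1 and F11), 1 with propionate (F11) and 1 with butyrate (F13b). The C1q genes added 0, 3 and 3 members. Over all genes above the floor the shares past 1.1-fold were 31.5% with acetate, 32.1% with propionate and 27.9% with butyrate, and above the higher floor 23.4%, 22.3% and 19.7%. By sign alone, 24 of the 30 lay below control with acetate, beside 53.8% of all genes, and their median log2 ratio was -0.04 beside -0.01. With propionate 18 of 30 lay below control, beside 60.8% of all genes, and with butyrate 17 of 30, beside 51.3%. Against the mean of the other 3 pools, 27 of 30 lay below with acetate, 18 with propionate and 9 with butyrate, beside 49.9%, 62.1% and 45.4% of all genes. The acetate pool was the lowest of the 4 for 17 of the 30 members, and for 23.8% of all genes above the floor. The control pool was the highest for 14 of the 30, and for 28.3% of all genes.

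**Figure D4:**
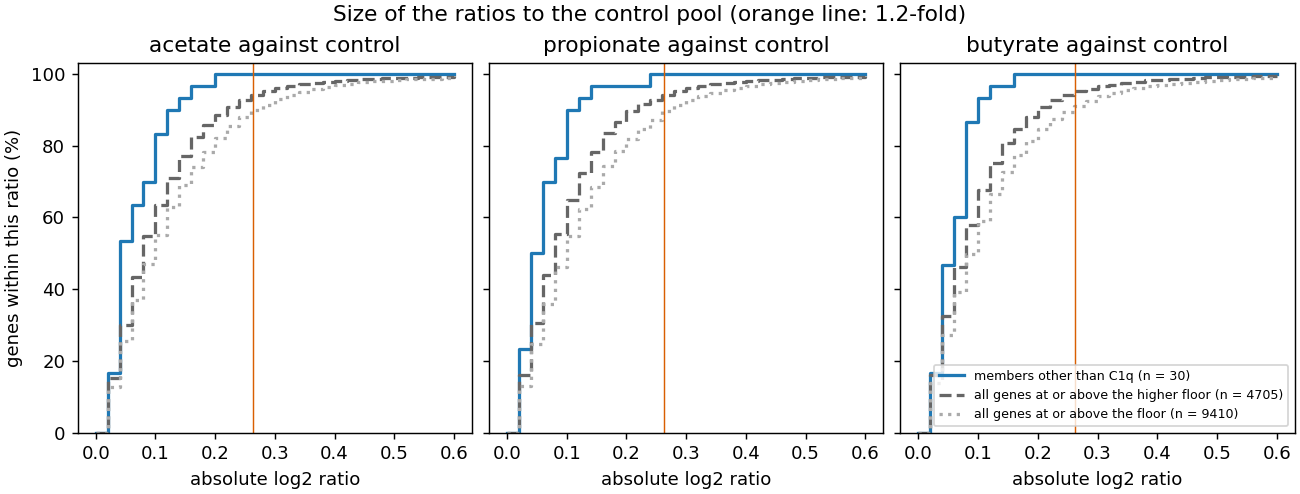
Percentage of genes (y axis) whose absolute log2 ratio to the control pool is at most the value on the x axis, for the 30 members outside C1q (blue), the 4705 genes above the higher floor (dashed grey) and the 9410 genes above the floor (dotted grey); the orange line marks 1.2-fold. Within a log2 ratio of 0.1 lay 83.3%, 90.0% and 93.3% of the 30 members with acetate, propionate and butyrate, against 63.5%, 64.7% and 67.5% of genes above the higher floor. Neither background is matched to the 30 members on level.

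In the contact and intrinsic branch, F11 had the widest span of the 30. F11 encodes factor XI, a protease zymogen that activates factor IX, and stood at 8.80 with acetate, 8.70 with propionate and 8.86 with butyrate, against 8.94 in the control pool. All 3 acid pools lay below control, by 0.15, 0.24 and 0.09, and the propionate ratio of 0.85 was the lowest of any member. F9, whose product factor IX is the protease missing in haemophilia B, stood at 10.90, 10.97 and 11.07 in the acetate, propionate and butyrate pools, against 10.96 in the control pool. It lay on either side of control, at -0.06 with acetate and 0.11 with butyrate. F12, for the contact factor XII, stood at 11.50, 11.47 and 11.54, against 11.54 in control. Kng1, for the kininogen that carries bradykinin, stood at 12.90, 12.92 and 12.94, against 12.91 in control. Mice have a close copy, Kng2, which stood at 12.06, 12.10 and 12.12, against 12.08 in control, and signal shared between the 2 copies was not tested.

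Of the extrinsic and common pathway, F7, the protease that pairs with tissue factor, stood at 9.52 with acetate, 9.58 with propionate and 9.67 with butyrate, against 9.64 in the control pool. F10, the protease of the prothrombinase complex and the gene next to F7 on chromosome 8, stood at 11.38, 11.35 and 11.42, against 11.44 in control. F7 was lowest with acetate, at -0.12, and F10 with propionate, at -0.09. F5, the cofactor of factor X, stood at 11.45, 11.45 and 11.39 with acetate, propionate and butyrate, against 11.44 in control. F2, which encodes prothrombin, spanned only 0.03 over the pools, at 12.48, 12.47 and 12.45, against 12.46 in control. Of the fibrinogen chain genes, Fgb stood at 13.00, 13.05 and 13.04, against 13.02 in control, and Fgg at 13.24, 13.23 and 13.27, against 13.24 in control. F13b, the carrier subunit of the enzyme that cross-links fibrin, stood at 9.98, 10.01 and 10.10 in the acetate, propionate and butyrate pools, against 9.95 in the control pool, and with butyrate it had the highest ratio among the 30, 1.11-fold.

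Of the 6 inhibitors and fibrinolytic genes, all were below control with acetate and with butyrate, and 5 with propionate. Their median log2 ratios were -0.07, -0.04 and -0.04, beside -0.01, -0.03 and -0.0036 over all genes, of which 53.8%, 60.8% and 51.3% lay below control. The control array was the highest of the 4 for 5 of the 6 genes, so these counts rest on that array. Serpinf2, which encodes the plasmin inhibitor alpha-2-antiplasmin, stood at 12.2 with acetate, 12.26 with propionate and 12.30 with butyrate, against 12.35 in the control pool. Proc, the zymogen of the anticoagulant protease protein C, stood at 11.19, 11.19 and 11.18, against 11.27 in control. Its cofactor gene Pros1 stood at 9.39, 9.54 and 9.41, against 9.48 in control, and so was the exception above control with propionate. Serpinc1, for antithrombin, spanned 0.03, at 12.61, 12.62 and 12.62, against 12.64 in control. Serpind1, for the thrombin inhibitor heparin cofactor II, stood at 11.92, 11.93 and 11.93, against 11.96 in control. Plg, for plasminogen, stood at 12.69, 12.69 and 12.71 with acetate, propionate and butyrate, against 12.73 in control. The sizes ran from 0.02 to 0.13 below control in the acetate and butyrate pools.

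In the lectin pathway the 2 mannose-binding lectins lay on opposite sides of control. Mbl1 stood at 10.49 with acetate, 10.62 with propionate and 10.60 with butyrate, against 10.67 in the control pool. Mbl2 stood at 9.67, 9.78 and 9.72 in the acetate, propionate and butyrate pools, against 9.64 in the control pool. Mbl1 with acetate, at -0.19, was the lowest acetate ratio of any member, and Mbl2 with propionate, at 0.13, the highest propionate ratio outside C1q. Masp1, a protease that works with both lectins, stood at 10.93, 10.92 and 10.92, against 10.96 in control.

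The 4 measured members among the convertases and their regulators shared their lowest and highest pools. All 4 lay below control with acetate (0.03 to 0.09 lower) and above it with butyrate (0.04 to 0.07 higher). Of all genes above the floor, 53.8% lay below control with acetate and 51.3% with butyrate. C4bp, whose product binds C4b and helps to inactivate it, stood at 11.80 with acetate, 11.86 with propionate and 11.96 with butyrate, against 11.89 in the control pool. Cfb, the protease of the alternative pathway convertase, stood at 11.88, 11.93 and 11.98, against 11.91 in control. Its neighbour on chromosome 17, C2, the protease of the classical convertase, stood at 9.26, 9.34 and 9.37, against 9.29 in control. Cfi, the protease that cuts C3b and C4b, stood at 11.81, 11.87 and 11.88 with acetate, propionate and butyrate, against 11.85 in control. Acetate was the lowest pool and butyrate the highest for each of the 4, while propionate lay below control for C4bp and above it for the others. This order of extremes was not particular to these genes, since Kng1, F9, F7 and Hc shared it. Nor did it hold for all complement genes outside the members. C4a was highest with acetate and lowest in control, at 8.42, 8.42 and 8.41, against 8.33 in control. Susd4 was highest in control, whereas Cfp and Cd55 shared the order. Acetate was the lowest pool for 17 of the 30 members outside C1q.

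Terminal components showed no shared order. Hc, which encodes C5, the source of the C5a peptide and the first part of the pore, stood at 12.16 with acetate, 12.18 with propionate and 12.26 with butyrate, against 12.19 in the control pool. C6 stood at 11.04, 10.94 and 10.99, against 11.04 in control. Of the 3 chains of C8, C8a stood at 11.66, 11.66 and 11.68, against 11.70 in control. C8b, the gene beside C8a on chromosome 4, stood at 11.89, 11.92 and 11.97 in the acetate, propionate and butyrate pools, against 11.998 in the control pool. C8g stood at 12.18, 12.22 and 12.18, against 12.26 in control. The C8 chains were thus below control in all 3 acid pools, by 0.02 to 0.10. Control was the highest pool for all 3 chains, so these signs rest on that array. Over all genes 53.8%, 60.8% and 51.3% lay below control with acetate, propionate and butyrate. C9, which polymerises to complete the pore, stood at 11.77, 11.82 and 11.80 with acetate, propionate and butyrate, against 11.75 in the control pool, above it in each case.

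Between the acids, 0 of the 30 members outside C1q passed 1.2-fold in any of the 3 pairs. The butyrate pool lay above the acetate pool for 25 of 30, beside 52.4% of all genes, with a median log2 ratio of 0.04 beside 0.01 over all genes, and the largest differences were those of F9 (0.17), C4bp (0.16) and F7 (0.15). The propionate pool lay above the acetate pool for 21 of 30, beside 41.7% of all genes, led by Pros1 (0.15), with a median of 0.03 beside -0.02 over all genes. Butyrate against propionate gave 19 of 30 above, beside 59.6% of all genes, led by F11 (0.15), with Pros1 lowest at -0.13 and a median of 0.02 beside 0.03 over all genes. At 1.1-fold or more above, 3 of 30 were counted for butyrate over acetate, 1 for propionate over acetate and 1 for butyrate over propionate, beside 20.1%, 10.4% and 22.1% of all genes. The ratios between acids thus reached at most 0.17 for these genes, and single arrays give no interval for them.

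Hepatocyte markers were high, as the tissue label implies: the 9 measured genes lay between 12.1 and 13.4 in every pool and within 0.16 of control. All 6 skeletal muscle markers also lay above the floor in the acetate, propionate and control pools, and 1 did in the butyrate pool. Whether the pools held tissue other than liver was not tested. Of 26 further coagulation genes 22 were measured, and 14 had mean levels above the floor. Of these 14, 1 lay 1.2-fold or more below control with acetate and 0 passed in any other case. Over all genes above the floor 5.26% lay that far below control with acetate, so the count was near the background. The 1 gene counted was Serpina10, which encodes an inhibitor of factor X that works with protein Z. Serpina10 stood at 11.13, 11.34 and 11.40 in the acetate, propionate and butyrate pools, against 11.42 in the control pool. The remaining fibrinogen chain, Fga, stood at 10.73, 10.64 and 10.53, against 10.67 in control, lowest with butyrate. F8, made by endothelium, stood at 9.01, 8.95 and 9.01, against 8.94 in control, and Vwf, for the carrier of factor VIII, at 6.29, 6.33 and 6.21, against 6.31 in control.

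Of 35 further complement genes 28 were measured, and 23 had mean levels above the floor. Among those 23, 0 were called higher and 3 lower with acetate, 3 higher and 0 lower with propionate, and 6 higher and 0 lower with butyrate. Over all genes above the floor, 4.65%, 4.55% and 4.87% were called higher with acetate, propionate and butyrate. The shares called lower were 5.26%, 5.64% and 3.73%. The 6 higher with butyrate were Itgam and Itgb2, the chains of the iC3b receptor CR3, the C3b receptor Vsig4 of Kupffer cells, properdin (Cfp), the anaphylatoxin receptor C3ar1 and the convertase inhibitor Cd55. Vsig4 stood at 10.09, 10.18 and 10.65 in the acetate, propionate and butyrate pools, against 10.08 in the control pool, and it is also in the Kupffer cell list. Cfp stood at 8.93, 9.09 and 9.49, against 8.94 in control, and Itgb2 at 6.59, 7.26 and 7.13, against 6.64 in control. Itgam lay near the floor of 5.55, at 5.68, 5.93 and 6.13, against 5.43 in control. The control value was below that floor, so the size of the Itgam ratio is not exact. With propionate the 3 higher were Itgb2, Itgam and C3ar1, the last at 7.15, 7.38 and 7.47 in the acetate, propionate and butyrate pools, against 7.11 in control.

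The 3 complement genes lower with acetate were Apcs, Fcna and Susd4. Apcs, for the pentraxin serum amyloid P, stood at 11.52 with acetate, 11.84 with propionate and 11.95 with butyrate, against 11.90 in the control pool. Fcna, for the lectin ficolin A, stood at 8.57, 8.75 and 8.97, against 8.88 in control, and the complement inhibitor gene Susd4 at 8.08, 8.10 and 8.28, against 8.36 in control. The proteases that complete the C1 complex with C1q lay within 1.2-fold of control. C1ra stood at 8.41, 8.42 and 8.53, against 8.34 in control, and C1s1 at 10.68, 10.60 and 10.68, against 10.64 in control. Serping1, for the inhibitor of C1, stood at 12.56, 12.61 and 12.67 with acetate, propionate and butyrate, against 12.64 in control. With butyrate C1ra lay 0.19 above control and C1s1 0.04 above it.

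**Figure D5:**
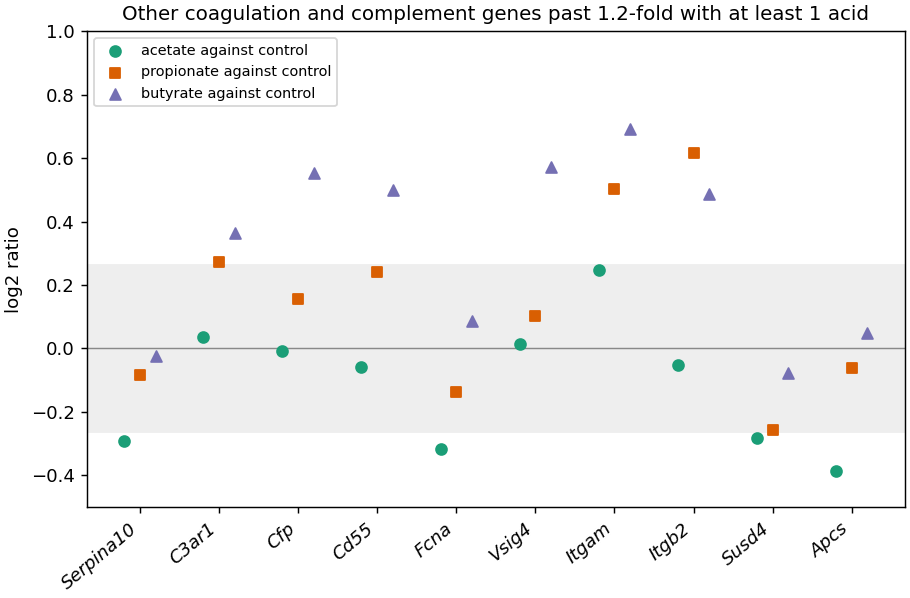
Log2 ratio to the control pool (y axis) of the 10 further coagulation and complement genes above the floor that passed 1.2-fold with at least 1 acid; circles are acetate, squares propionate and triangles butyrate, and the band marks ratios within 1.2-fold. Serpina10, Fcna, Susd4 and Apcs lie below the band with acetate, and the 6 genes above it with butyrate reach 0.36 to 0.69.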

How the data were processed

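Pooled liver RNA of 4 groups (500 ng per mouse, 100 ng into cDNA synthesis, per the labels) was measured on 4 whole-transcript arrays. The authors deposited 1 log2 value per probe set and array. The submitters' processing notes name RMA, with no version or settings in the sources used. Array medians lay between 5.11 and 5.12, so a shift of all genes in a pool cannot be seen. Probe sets with 1 symbol in GEO's platform annotation (21218 of 35556) were averaged per symbol. Ratios are differences of log2 values, computed with Python 3.11.15 and pandas 2.3.3. The counting was tested on simulated data at 1.5-fold only, with larger planted changes. That test did not cover the counts at 1.2-fold or 1.1-fold. Genes were called at 1.2-fold, with 1.1-fold and 1.5-fold, cyclic loess (limma 3.58.1), other floors, other probe set rules, the mean of lists and another reference as alternatives. All members are named. Other genes of both systems are named where they passed 1.2-fold above the floor. Further genes were named after their values were seen (Fga, F8, Vwf, Kng2, C1ra, C1s1, C4a, Serping1, Marco, Adgre1, Clec4f, Lyz2, Cd68, Ppbp, Saa3, Orm2 and Orm3). The members and lists were chosen with earlier results of these data known. The number of arrays limits the precision.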

Additional observations from a re-analysis of the deposited data

How the results depend on the processing

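Values come from 1 array per group, so stability here means only stability to processing. Counts were taken as kept within 1.5 times and list values within 0.05 on the log2 scale. The level floor and the probe set rule could not move any member value, since all 33 members lay above both floors and each has 1 probe set. The mean of each list in place of its median moved no list value. Cyclic loess changed 1 of them, the C1q genes past 1.2-fold with propionate, 2 in place of 1. With the average of the remaining 3 pools as the reference, the C1q median was -0.18 with acetate (0.07 against control), 0.092 with propionate, with 0 genes called, and 0.33 with butyrate, where all 3 genes stayed past 1.2-fold, and 9 of the 30 other members lay below with butyrate (17 against control). At 1.1-fold, 3 C1q genes were higher with propionate than control, 2 with propionate than acetate and 3 with butyrate than propionate. Of the 30 others, 2 were lower with acetate, 1 lower with propionate and 1 higher with butyrate than control, and 1, 3 and 1 were higher for propionate over acetate, butyrate over acetate and butyrate over propionate. At 1.5-fold, 0 C1q genes were called with propionate or butyrate against control, or with butyrate against acetate. The cause of these shifts was not tested beyond the change of threshold or reference itself. No paired analysis was possible because each group has 1 array.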

Other observations

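A probe set shared by Masp2, a lectin pathway protease, and Tardbp, an RNA-binding protein, entered no comparison because its signal cannot be given to either gene. It stood at 11.09, 11.10 and 11.27 in the acetate, propionate and butyrate pools, against 11.20 in the control pool.

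Platelets carry part of the clotting machinery on their surface, and 6 of 8 listed platelet and megakaryocyte markers were measured. Ppbp, the platelet basic protein, stood at 5.83, 6.92 and 7.48 in the acetate, propionate and butyrate pools, against 6.86 in the control pool. The other 5 had levels near or below the floor of 5.55. Acute-phase proteins outside the members, most of which hepatocytes secrete in inflammation, lay below control with acetate for 14 of 15 measured genes, with 4 past 1.2-fold and a median log2 ratio of -0.10. Over all genes above the floor, 53.8% lay below control and 5.26% by 1.2-fold or more, with a median of -0.01. The 4 genes were Orm2 (-0.96), Orm3 (-0.83), Saa3 (-0.42) and Apcs (-0.39), and Apcs was also counted among the further complement genes. Saa3 stood at 7.23 with acetate and 8.16 with butyrate, against 7.65 in the control pool. With propionate 10 of the 15 genes lay below control (median -0.01), beside 60.8% of all genes. With butyrate 2 of 15 lay below control and 13 above it (median 0.05), beside 51.3% of all genes below. The butyrate pool lay above the acetate pool for 15 of 15 (median 0.14), beside 52.4% of all genes.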
